A study of Mus musculus with 8 samples.

Results

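The loops described here join the neighbourhood of Tnf, Lta and Ltb, 3 cytokine genes that lie side by side on mouse chromosome 17. A loop here means 2 bins of 5 kb whose contacts passed a q-value of 0.01 in at least 1 of 4 deposited interaction lists. Loops were taken when a bin held the canonical start site of a member gene (GENCODE M39 on GRCm39), or when both bins lay within 100 kb of the Tnf start site. This gave 273 of the 214313 loops of the union of the 4 lists, and 132 of them were in all 4 lists, of 31032 in all.

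The contacts come from H3K27ac HiChIP, which enriches ligated chromatin for an acetylated histone of active regulatory regions, and the cells were HPC-7, an immortal progenitor line of mouse blood kept in stem cell factor (SCF). The cells expressed the full-length isoform p42 of the transcription factor CEBPA, or p30, the N-terminally shortened isoform of leukaemia with CEBPA mutations, and were left untreated (UT) or given lipopolysaccharide (LPS) of Escherichia coli, a ligand of TLR4, at 100 ng/mL for 2 h. Each isoform and treatment had 2 of the 8 libraries, and 1 list was deposited for each of these 4 groups, so no spread between replicates could be measured. Every difference below therefore compares 4 lists and not the conditions, has no replicate check and carries no p-value. According to the study's methods the isoforms were delivered by retrovirus and transduced cells were sorted by GFP; they were made as fusions with ERT2, which tamoxifen sends to the nucleus, and as constitutive FLAG-tagged proteins, and the labels do not say which cells were used here. Both isoforms were added to the line, and no cells without an added isoform were analysed here. The study chose the line for its likeness to mouse blood stem cells, its lack of typical leukaemia mutations and its very low own CEBPA. Of 12 progenitor genes such as Kit, Gata2 and Runx1, 12 had a promoter loop in each list, whereas 0 of 4 T cell genes had one in any list. Promoter loops were also listed for 3 of 3 macrophage genes in p30 LPS and p42 UT and 2 of 3 in the other lists, and for Krt8 in p42 UT as the only 1 of 3 genes of fibroblasts and epithelium.

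Tumour necrosis factor (TNF) is a secreted and membrane-bound cytokine that starts inflammatory signalling through NF-kB, and it is among the first genes that LPS induces in myeloid cells. Lymphotoxin alpha, encoded by Lta, binds TNF receptors as a secreted trimer, and together with lymphotoxin beta, encoded by Ltb, it forms a membrane complex that binds the lymphotoxin beta receptor and is needed for lymph nodes to form. The genes lie in the class III region of the major histocompatibility complex, a stretch dense in genes of immune and general functions, and NF-kB, ETS, CEBP and AP-1 proteins are among the factors known to act at their promoters.

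Tnf (ENSMUSG00000024401) spans chr17:35418357-35420983 on the minus strand and Lta (ENSMUSG00000024402) spans chr17:35422141-35424327 on the same strand. Both start sites fall in the bin chr17:35420001-35425000, together with that of the microRNA gene Mir6974, so no loop or read of this bin can be given to 1 of the genes. Ltb (ENSMUSG00000024399) spans chr17:35413382-35415296 on the plus strand, and its start site lies in the bin chr17:35410001-35415000, which also holds the start of Mir6973a. Where 4 values are given in list order, they are those of p30 UT, p30 LPS, then p42 UT and lastly p42 LPS. A distance is that of a partner bin from a start-site bin, positive towards Nfkbil1 and negative towards Lst1. As loops shorter than 10 kb were not listed, neighbouring bins have no value.

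Upstream sequences of the 3 genes are shown because both start-site bins were peak bins in every list. They are the bases before the start site of RefSeq's promoter windows (table build GRCm38.p6), found by exact match in GRCm39 at chr17:35420984-35421233 for Tnf, chr17:35424328-35424577 for Lta and chr17:35413233-35413381 for Ltb. The last 101 of the 250 bases of the Ltb window lie inside the annotated first exon and are left out. Capitals mark matches, on either strand, to the kappaB consensus, AP-1 (TGANTCA), CRE (TGACGTCA), CEBP (TTGCNNAA) or TATA box (TATAAA), and the sequences run 5′ to 3′ on the strand of the gene.
Tnf: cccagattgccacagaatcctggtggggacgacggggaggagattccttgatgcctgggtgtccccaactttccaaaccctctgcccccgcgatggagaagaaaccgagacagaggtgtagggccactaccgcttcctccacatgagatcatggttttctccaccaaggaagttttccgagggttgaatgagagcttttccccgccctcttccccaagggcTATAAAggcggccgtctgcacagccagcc
Lta: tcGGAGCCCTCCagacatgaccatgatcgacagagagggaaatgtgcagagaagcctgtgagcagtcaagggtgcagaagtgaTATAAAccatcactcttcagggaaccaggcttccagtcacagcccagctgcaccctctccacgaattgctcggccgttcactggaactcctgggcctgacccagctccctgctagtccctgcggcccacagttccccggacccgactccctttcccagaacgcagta
Ltb: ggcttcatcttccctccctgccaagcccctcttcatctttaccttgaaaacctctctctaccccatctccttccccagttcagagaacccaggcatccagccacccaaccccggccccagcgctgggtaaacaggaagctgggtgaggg
In the Tnf sequence the match was a TATA box at bases -29 to -24. The Lta sequence held a TATA box at -167 to -162 and a kappaB match at -248 to -239. The kappaB match of the Ltb window lay in the first exon, at chr17:35413396-35413405, and was GGAAAGTCCC. Of all 32851 windows of 250 bases, 9.55% held a kappaB match, 6.75% AP-1, 1.55% CRE, 9.56% CEBP and 12.4% a TATA box. The short ETS core GGAA was found 7 times in the Tnf window, 6 times in the Lta window and 5 times in the Ltb window, of which 3 lie in the printed sequence, and 93.4% of windows held it.

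The 5 kb bins hold more sequence than these windows, and kappaB matches in 2 of them are shown with 10 bases on each side because these bins are joined by the loop with the most contacts of the Tnf and Lta bin. All run along the plus strand of GRCm39, with the match in capitals, and are named by their distance in kb from the Tnf start, positive upstream.
Inside Tnf, -0.24 kb: ctggagttctGGAAGCCCCCcatcttttgg
Upstream of Tnf, 0.5 kb: tattgaggagGGAAAGCCCCctgtttgagt
Inside Lta, 2.83 kb: gaggggaagaGGAAAGCTCCaccatagaat
Inside Lta, 3.25 kb: ctggggcttgGGGAAGCCCCcagggcttag
Inside the bin 15 kb away, 16.22 kb: ctggcctcctGGGAGCCTCCtgcctggttc
Inside the bin 15 kb away, 16.75 kb: ctttatctcaGGGGAACCCCcaccaggcct
Inside the bin 15 kb away, 18.56 kb: ttcctccagaGGGGGGCCCCtggccaccaa
The Tnf and Lta bin held 6 kappaB matches, a number reached by 1.23% of 64985 peak bins, with a median of 1. The bin 15 kb away held 4, reached by 7.08% of peak bins, and the Ltb bin held 3, reached by 15.9%. Matches that overlap by a shift of 1 base were counted singly, and 1 match of such a pair is printed; the match at 3.58 kb is that of the Lta sequence above. The bin 15 kb away also held 77 ETS cores, reached by 1.77% of peak bins, against 62 in the Tnf and Lta bin and 45 in the Ltb bin, with a median of 53. AP-1 was matched 0 times in the Tnf and Lta bin, 1 time in the Ltb bin and 2 times in the bin 15 kb away, with a median of 1, and CEBP 1, 2 and 2 times, with a median of 2. CRE had 0 matches in each of these bins, and 4.02% of peak bins held one. A match is a run of letters and does not show that a factor was bound.

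H3K27ac HiChIP coverage, the number of reads of a bin, was high across the locus in all lists. The Tnf and Lta bin had 6663, 7692, 8771 and 5632 reads in list order. Divided by the mean coverage of peak bins, those that overlap an H3K27ac peak, this was 2.77, 3.44, 3.01 and 2.9. This was more than in 95.2% to 96.7% of the peak bins of each list. The highest of the 4 relative levels was that of p30 LPS, and the other 3 lay close together. The Ltb bin had 10468, 10276, 12329 and 6907 reads, or 4.35, 4.59, 4.24 and 3.56 times the mean of peak bins. For Ltb, which had more coverage than 98.1% to 99.2% of peak bins, it was p42 LPS that stood lowest. The bin of Lst1, a leukocyte gene between Ltb and Aif1, had the highest coverage of the window in each list, with 6.26, 6.86, 7.56 and 5.34 times the mean.

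**Figure D1:**
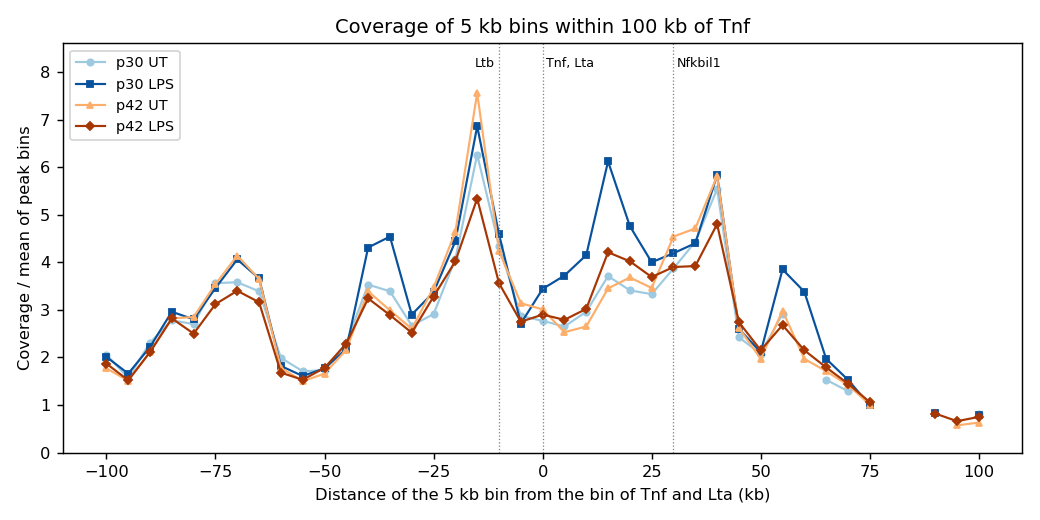
Coverage of 5 kb bins within 100 kb of Tnf, divided by the mean coverage of peak bins of each list, against the distance from the bin of Tnf and Lta in kb; each line is 1 list, and bins that a list does not hold are gaps. At 15 kb the p30 LPS list reached 6.12, against 4.21 in p42 LPS, 3.71 in p30 UT and 3.45 in p42 UT.

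The highest LPS over UT ratio of coverage in the window did not lie at a start-site bin of the 3 member genes. It lay 15 kb from Tnf and Lta, at chr17:35435001-35440000, and holds the 3′ end of Nfkbil1, which encodes an NF-kB inhibitor-like protein, and the start sites of the non-coding genes Gm65911, Gm56884 and Gm16181. It had 8914, 13713, 10032 and 8168 reads in list order, or 3.71, 6.12, 3.45 and 4.21 times the mean of peak bins. After division by the mean of peak bins, p30 LPS was 1.65 times p30 UT (95% counting interval 1.61 to 1.7). This was the highest ratio of the 32 peak bins of the window in both lists, and the only 1 past 1.5-fold, the size used here to call a difference; 2.28% of all peak bins of both lists passed it upwards. In p42 the same bin was 1.22 times higher with LPS (1.19 to 1.26), again the highest ratio of the window, but it was 0.977 times when coverage was divided by the modelled contacts of each list, the contacts to which the caller fitted its model. The adjoining bins at 5, 10 and 20 kb also had higher relative coverage with LPS in p30 (3.72 against 2.65, 4.15 against 2.96 and 4.76 against 3.41), ratios of 1.4, 1.4 and 1.39. In p42 these bins had 2.79 against 2.53, 3.02 against 2.65 and 4.02 against 3.68. At the start-site bins the LPS over UT ratio of coverage was 1.24 in p30 and 0.964 in p42 for Tnf and Lta, and 1.05 and 0.841 for Ltb. Intervals throughout cover counting error only, and reads of a PCR-amplified library without molecular identifiers are not independent molecules.

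Between isoforms, coverage of the Tnf and Lta bin was 1.09 times as high in p42 UT as in p30 UT and 0.846 times as high in p42 LPS as in p30 LPS. For Ltb these ratios were 0.973 and 0.776. The bin 15 kb away had 0.93 and 0.688. Divided by modelled contacts, the ratio in UT was above 1 at both, with 1.11 at Ltb and 1.06 at the bin 15 kb away. Between p42 and p30 in UT, 0 of 32 peak bins of the window passed 1.5-fold, where 4.78% of all peak bins passed upwards and 3.43% downwards, and 2 of 33 did so downwards in LPS, where 2.88% of all peak bins passed. These were the bin at -35 kb, with exons of Aif1 (0.635), and the bin of H2-D1 at 60 kb (0.638), which encodes a classical MHC class I molecule.

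The number of loops at the Tnf and Lta bin was 13, 14, 15 and 12 in list order. Of these, 11 were in all 4 lists. The partner with the most contacts was the bin at 15 kb, with 140, 234, 192 and 182 contacts. This loop had 4.87, 7.76, 6.27 and 6.56 times the contacts that the caller expected from the distance and the coverage of its bins. The start-site bin of Nfkbil1 at 30 kb had fewer contacts, 80, 111, 119 and 104, but the largest excess over expected, 7.77, 13, 10.1 and 11. Towards the other side, the bin of Lst1 at -15 kb had 109, 100, 142 and 68 contacts. The bin of Aif1, an actin-binding protein of macrophages, had 36, 38, 53 and 40 contacts at -30 kb. Atp6v1g2, a subunit of the vacuolar proton pump, was joined in every list, with 34, 30, 40 and 30 contacts at 35 kb. The RNA helicase gene Ddx39b at 40 kb was a partner in 3 lists, with 26 contacts in p30 UT, 23 in p42 UT and 34 in p42 LPS. At the loops of all 4 lists, unscaled contacts were highest in p42 UT, except for the bins at 15 and 25 kb, where they were highest in p30 LPS.

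**Figure D2:**
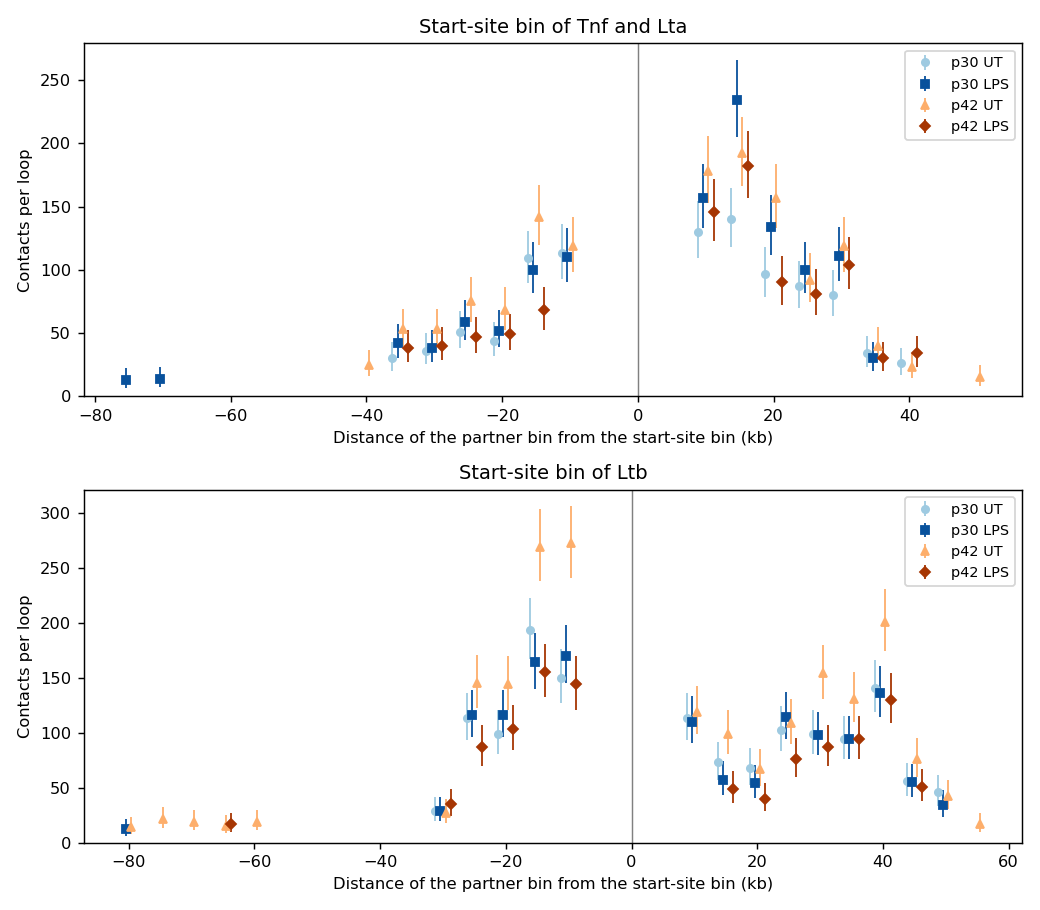
Contacts of each loop against the distance of its partner bin in kb, for the start-site bin of Tnf and Lta and for that of Ltb; points are the 4 lists, bars are exact 95% Poisson intervals, and a missing point is a loop not in that list. The Tnf and Lta bin had its highest value, 234 contacts, at 15 kb in p30 LPS, and Ltb had its highest, 272, at -10 kb in p42 UT; 2 Ltb partners beyond -100 kb are not drawn.

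Some partners of Tnf and Lta were listed in a single group. In p30 LPS there were loops to the bins of D17H6S53E at -75 kb (13 contacts) and of Apom, an apolipoprotein gene, and Bag6, a chaperone gene, at -70 kb (14 contacts). In p42 UT there were loops to the bin of Prrc2a at -40 kb (25 contacts) and to a bin within Ddx39b at 50 kb (15 contacts). The contacts of these bin pairs in the other lists are unknown, since only pairs past the threshold were listed. The loop between the bins of Tnf and Lta and of Ltb, 10 kb apart, had 113 contacts in p30 UT, 110 in p30 LPS and 119 in p42 UT, and was not listed in p42 LPS. It had the smallest excess of the Tnf and Lta bin, 1.76, 1.83 and 1.68 times the expected contacts.

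At the 11 loops of the Tnf and Lta bin in all 4 lists there were 838 (782 to 897), 1057 (994 to 1120), 1169 (1100 to 1240) and 875 (818 to 935) contacts in list order, with exact Poisson intervals. Per 1000000 modelled contacts, this was 46.6, 72.9, 61.5 and 55.3. These contacts were 3.89, 5.21, 4.88 and 4.42 times the expected number. On both scales p30 LPS was highest and p30 UT lowest. Of these contacts, 67.8% (64.5 to 70.9) went towards Nfkbil1 in p30 UT and 72.5% (69.7 to 75.1) in p30 LPS. In p42 the share was 66.6% (63.8 to 69.3) without LPS and 72.3% (69.3 to 75.3) with it. The share, which does not depend on the scaling of a list, was higher in both LPS lists than in both UT lists, and the exact binomial intervals of UT and LPS overlapped in p30 and touched at 69.3% in p42. For Ltb the shares towards Nfkbil1 were 52%, 50.5%, 49.4% and 50.1%, with overlapping intervals in all lists.

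At loops held by both lists of a comparison, and per modelled contact, contacts of the Tnf and Lta bin were 1.52 times as many in p30 LPS as in p30 UT (1.39 to 1.66, 12 loops). All 12 loops were above 1, and 4 passed 1.5-fold upwards and 0 downwards, where 17.1% and 2.05% of all loops did. These 4 were the loops to the bins at -35, 15, 20 and 30 kb, and the highest was that at 15 kb, with 2.07 times (1.67 to 2.57). Across all loops of these lists the median ratio was itself 1.16, and over that median the ratio of the bin was 1.31 and 1 loop passed 1.5-fold, that at 15 kb with 1.78. Per mean coverage of peak bins 2 loops passed, and per contacts in the loops of all 4 lists 1. In p42, contacts with LPS were 0.915 times those in UT (0.839 to 0.999, 12 loops), where the median of all loops was 0.913, and 1.14 and 1.11 times under those last scalings. Of these loops 1 passed 1.5-fold upwards, that to Ddx39b, and 1 downwards, that to Lst1 (0.575, 0.424 to 0.773), beside 3.76% and 12.9% of all loops; under the same scalings 1 passed upwards and 0 downwards. The loop to the bin at 15 kb was 1.14 times (0.924 to 1.4), and 1.25 over the median of all loops. Shares of all loops past 1.5-fold were computed per modelled contact only, so loop counts under other scalings, here and below, have none beside them.

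Between isoforms the Tnf and Lta bin had 1.27 times as many contacts in p42 UT as in p30 UT (1.17 to 1.38, 13 loops), with a median of 1.15 over all loops. In LPS it had 0.758 times as many (0.693 to 0.83, 11 loops), with a median of 0.916. In UT 2 loops passed 1.5-fold upwards and 0 downwards, beside 19.3% and 2.88% of all loops; in LPS 0 passed upwards and 2 downwards, beside 4.07% and 13.2%. Relative to the medians, the ratios were 1.11 and 0.828, and 0 loops passed in either. Per mean coverage of peak bins they were 1.11 and 0.956, and 0 loops passed. Per contacts in the loops of all 4 lists they were 0.991, on the other side of 1, and 0.876, and 1 loop passed, downwards in UT. The 4 comparisons share lists, so they are not independent of each other.

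**Figure D3:**
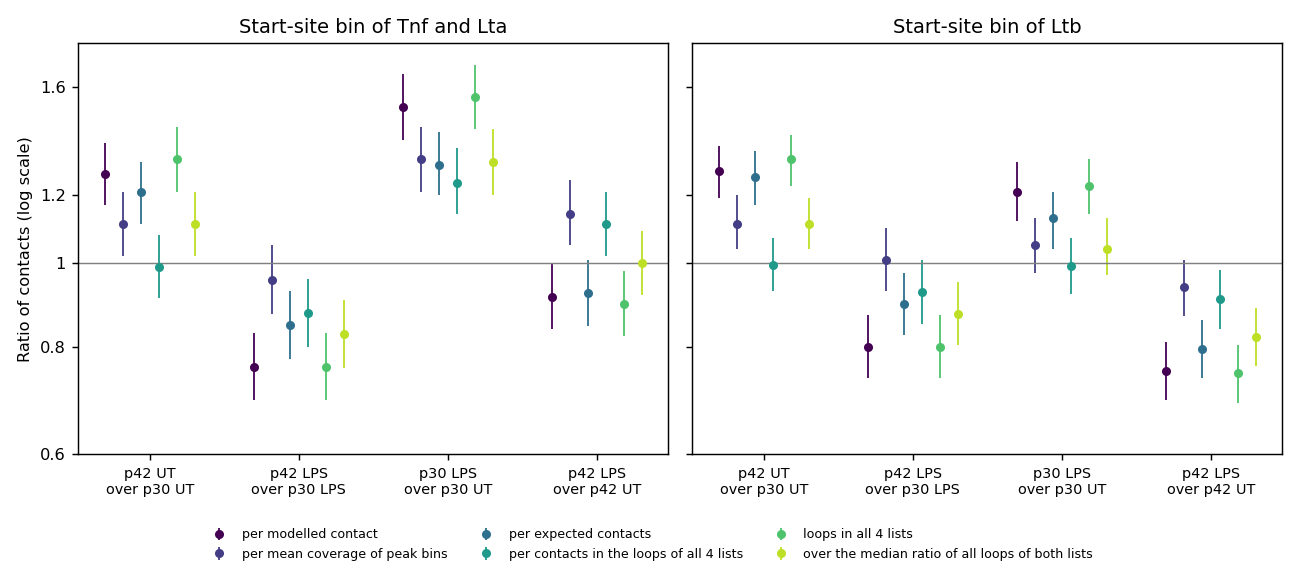
Ratio of contacts of each comparison on a log axis, for the start-site bins of Tnf and Lta and of Ltb; colours are the scalings and the restriction to loops of all 4 lists, bars are exact 95% counting intervals and the grey line is a ratio of 1. For Tnf and Lta, p30 LPS over p30 UT was above 1 under all of them, from 1.24 to 1.56, whereas p42 LPS over p42 UT ran from 0.898 to 1.14.

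The lists differed in how much of their signal lay in peak bins. Mean coverage of peak bins was 3.95, 5.7, 6.38 and 4.12 times that of other bins in list order, and 12.7%, 18.2%, 25.2% and 13.6% of modelled contacts lay in listed loops. On both measures p30 LPS and p42 UT stood above the other lists, as they did in the loops and in the contacts per modelled contact of the members, and the part of this enrichment in those differences was not tested. Modelled contacts numbered 17976716, 14503330, 18999991 and 15831583, for 80489, 94609, 158233 and 78591 loops.

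At the Ltb bin there were 14, 16, 22 and 13 loops in list order, of which 12 were in all 4 lists. Its loop to the start-site bin of Nfkbil1, 40 kb away, had 141, 136, 201 and 130 contacts. That was 16.7, 21, 22.1 and 18.4 times the expected number, the largest excess of any loop of the 3 genes in each list. In each list the excess was larger at each step along Nfkbil1, from between 5.6 and 8.07 times at 25 kb, over between 9.93 and 13.3 times at 35 kb, to this value. The median excess over all loops of a list was 4.24 to 4.34. Near Ltb, the bin at -10 kb, with exons of Lst1, had 150, 170, 272 and 144 contacts, but only 1.98, 2.55, 3.2 and 2.27 times the expected number. The bin at -15 kb, between Lst1 and Aif1, had 193, 164, 269 and 155 contacts, and the start-site bin of Aif1 at -20 kb had 99, 116, 144 and 103. On the right, Atp6v1g2 at 45 kb had 56, 55, 76 and 51 contacts, and Ddx39b at 50 kb had 46, 34 and 42 contacts in p30 UT, p30 LPS and p42 UT and was not listed in p42 LPS.

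**Figure D4:**
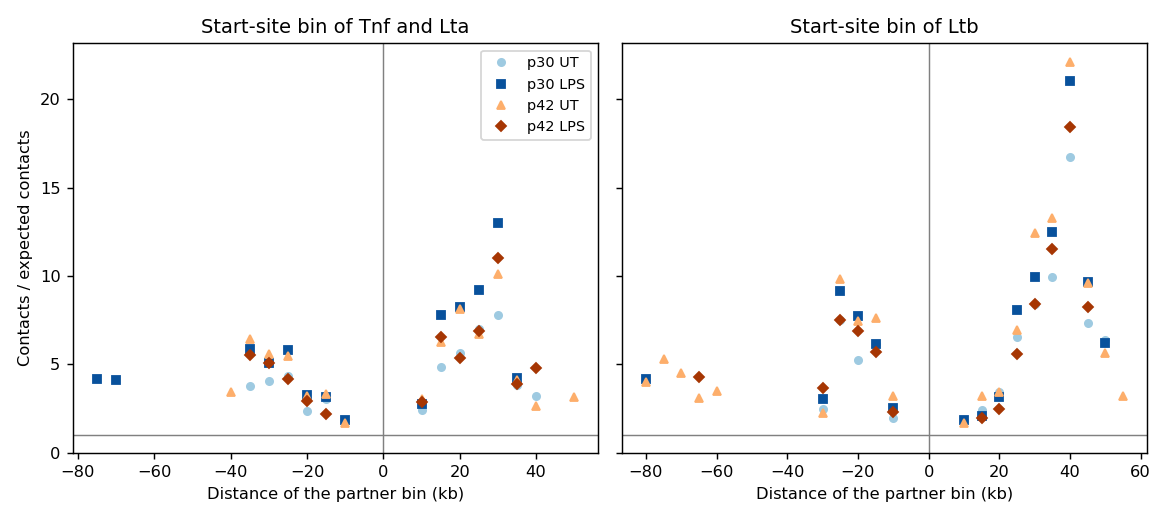
Contacts divided by the contacts expected by the caller for each loop, against the distance of the partner bin in kb; points are the 4 lists and the grey horizontal line marks 1. For both start-site bins the largest excess lay at the start of Nfkbil1, at 30 kb from Tnf and Lta (7.77 to 13) and at 40 kb from Ltb (16.7 to 22.1); 2 Ltb partners beyond -100 kb are not drawn.

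The additional loops of Ltb in p42 UT were long and held few contacts. They reached the bins of Csnk2b, a regulatory subunit of casein kinase, and Gpank1 at -70 kb (19 contacts), a bin within Csnk2b at -75 kb (21), Apom and Bag6 at -60 kb (19), a bin within Ddx39b at 55 kb (17) and Lsm2, a gene of RNA splicing, at -210 kb (13). The bin of D17H6S53E at -65 kb was joined in p42 UT (15) and p42 LPS (17). Ly6g5b at -80 kb was joined in p30 LPS (12) and p42 UT (14), as was the bin of Msh5, a meiosis gene, and Clic1, a chloride channel gene, at -145 kb, with 10 and 13 contacts. At a q-value under 1e-05, Ltb had 13 loops in p30 UT and 13 in p42 UT.

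At the 12 loops of Ltb in all 4 lists there were 1217 (1150 to 1290), 1203 (1140 to 1270), 1694 (1610 to 1780) and 1051 (988 to 1120) contacts in list order. Per 1000000 modelled contacts this was 67.7, 82.9, 89.2 and 66.4, and against the expected number it was 4.75, 5.49, 6.23 and 4.92 times. On both scales p42 UT was highest for Ltb, where p30 LPS was highest for Tnf and Lta, and this difference was not tested. At loops of both lists, p42 UT had 1.28 times the contacts of p30 UT (1.19 to 1.37, 14 loops) and p42 LPS 0.8 times those of p30 LPS (0.736 to 0.87, 12 loops). With LPS, contacts were 1.21 times as many in p30 (1.12 to 1.31, 14 loops) and 0.75 times in p42 (0.694 to 0.81, 13 loops). Over the medians of all loops given above these ratios were 1.11, 0.874, 1.04 and 0.821. Those in UT and in p30 lay on the other side of 1 per contacts in the loops of all 4 lists (0.996 and 0.992), and that in LPS did so per mean coverage of peak bins (1.01). Of the Ltb loops, 1 passed 1.5-fold upwards between the isoforms in UT (that at -10 kb, 1.72) and 1 downwards in LPS (that at 25 kb, 0.611). With LPS 0 passed in p30, and in p42 1 passed upwards and 2 downwards, those at -10 kb (0.635) and 15 kb (0.594); the shares of all loops are those given for Tnf and Lta. Per mean coverage of peak bins, and likewise per contacts in the loops of all 4 lists, 0 Ltb loops passed between the isoforms, and with LPS in p42 2 passed upwards and 0 downwards. Shares of all loops were not computed for these scalings.

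Within 100 kb of Tnf there were 166, 204, 233 and 183 loops in list order, of which 26, 28, 34 and 25 touched a start-site bin of a member. The window thus held 0.206%, 0.216%, 0.147% and 0.233% of the loops of its list. Of the 271 loops in any list, 132 were in all 4, beside 31032 of the 214313 loops of the series. In list order, 4, 19, 36 and 8 were in a single list. Both p42 lists and no p30 list shared 9 loops, both p30 lists and no p42 list 1, both LPS lists and no UT list 1, and both UT lists and no LPS list 0. How all loops of the series divide over these single-list and shared classes was not computed. The lists differ in size, from 78591 loops in p42 LPS to 158233 in p42 UT. Per modelled contact, the median ratio of the loops of the window was 1.29 for p42 UT over p30 UT, 0.818 for p42 LPS over p30 LPS, 1.33 for p30 LPS over p30 UT and 0.861 for p42 LPS over p42 UT. Per mean coverage of peak bins, the summed contacts of the window had ratios of 1.15, 1.01, 1.17 and 1.03. Of 152 loops of the window in both p30 lists, 46 passed 1.5-fold upwards with LPS, or 30.3% beside 17.1% of all loops. In p42, 3 of 169 passed upwards, or 1.78% beside 3.76%, and 17 downwards, or 10.1% beside 12.9%. Between the isoforms, 32 of 156 loops passed upwards in UT, or 20.5% beside 19.3%, and 22 of 156 downwards in LPS, or 14.1% beside 13.2%, shares near those of all loops. Loops of the window share bins and are not independent of each other.

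Neighbouring start-site bins gave the same kind of counts. Lst1 had 18, 21, 25 and 16 loops in list order, Aif1 had 13, 17, 20 and 15, and Prrc2a, which binds methylated RNA, had 18, 23, 27 and 21. Nfkbil1 had 24, 26, 30 and 27, Atp6v1g2 had 25, 34, 35 and 27, and Ddx39b had 23, 32, 33 and 23. Further left, Apom and Bag6 had 17, 17, 26 and 16, D17H6S53E had 14, 17, 26 and 14, and Csnk2b and Gpank1 had 25, 26, 33 and 21. Ly6g5b had 23, 24, 36 and 13 loops, and Ly6g5c 7, 9, 13 and 7. H2-D1 had 0, 3, 2 and 1. Each of these bins other than that of H2-D1 had the most loops in p42 UT, as did Tnf and Lta and Ltb. The shared bin of Tnf and Lta and the bin of Ltb were thus not the most connected of the window in any list.

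**Figure D5:**
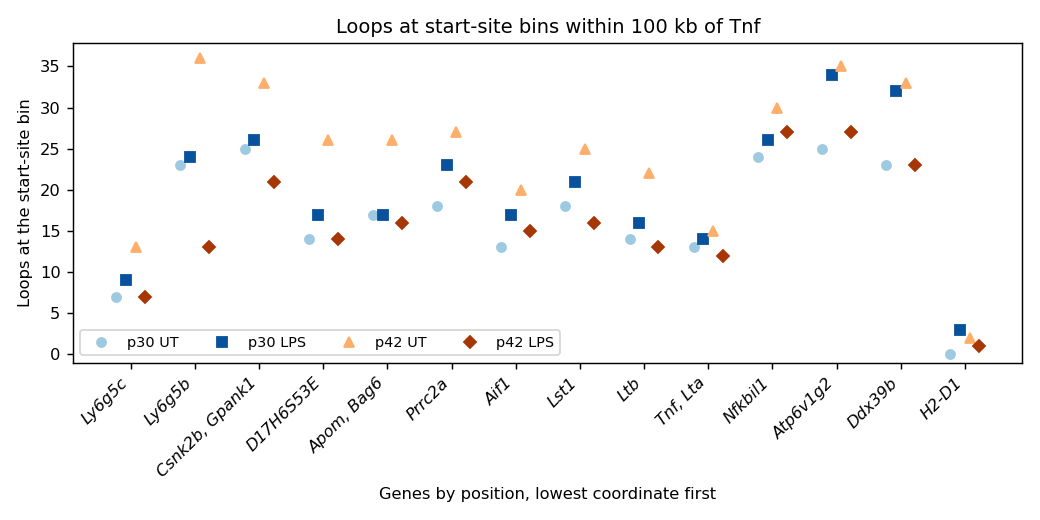
Number of loops at the start-site bin of each protein-coding gene within 100 kb of Tnf, with genes in order of position; points are the 4 lists, and genes that share a bin share a place. Tnf and Lta had 12 to 15 loops and Ltb 13 to 22, and Atp6v1g2 reached 35 in p42 UT.

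Of all 10526 protein-coding genes with a promoter loop in any list, 79% had more in p42 UT than in p30 UT, 51% fewer in p42 LPS than in p30 LPS, 47% more in p30 LPS than in p30 UT and 82.7% fewer in p42 LPS than in p42 UT. The start-site bins of the members did the same in each comparison. In the same order of comparisons, 7.96%, 20.5%, 24.5% and 4.27% of these 10526 genes differed the other way. A list of 48 other genes of TNF and lymphotoxin signalling was written with earlier results of these data known. Beside 10526 of all 21757 protein-coding genes, 36 of the 48 had a promoter loop in any list. Of these 36, 32 had more and 2 fewer in p42 UT than in p30 UT, and 6 had more and 24 fewer in p42 LPS than in p30 LPS. With LPS, 22 had more and 7 fewer in p30, and 0 had more and 31 fewer in p42. The median log2 difference in relative coverage of their start-site bins was 0.08, -0.16, 0.1 and -0.14 in these 4 comparisons, beside 0.07, -0.12, 0.05 and -0.14 over all genes.

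By role, 5 of 14 other ligands of the family had a promoter loop in any list, where 10526 of all 21757 protein-coding genes had one. Among these ligands was Tnfsf14 (LIGHT), a ligand of the lymphotoxin beta receptor, with 11, 11, 23 and 11. All 5 receptors and processing genes had loops in every list. The TNF receptor gene Tnfrsf1a had 9, 6, 17 and 10 and Tnfrsf1b had 2, 5, 7 and 3. The lymphotoxin beta receptor gene Ltbr had 2, 1, 3 and 2, and Adam17, the protease that releases TNF from the membrane, had 2, 5, 8 and 5. Loops were found for 21 of 24 adaptors and enzymes. Of the 5 inhibitors, which all had a loop, Tnfaip3 (A20), an enzyme that limits NF-kB signalling, had 7, 24, 20 and 18. The log2 relative coverage of its bin was 0.98 higher with LPS in p30 and 0.61 in p42. No gene of the list differed by 5 or more loops in the same direction in both comparisons of isoforms or in both of LPS, and the genes named here were chosen after their values were seen.

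Among 5443 genes more than 1 Mb from Tnf whose start-site bin was a peak bin in all lists, the 5 whose coverage over the 4 lists was most like that of the Tnf and Lta bin were Atf4, Mrpl52, Hexim2, Tufm and Supv3l1. Their Euclidean distances in centred log2 coverage were 0.0234, 0.0238, 0.0286, 0.0287 and 0.0302, beside a median of 0.31 over all of them and 0.259 for the Ltb bin. Atf4 had 2.06, 2.57, 2.21 and 2.14 times the mean of peak bins in list order. The distance rests on 4 values per gene.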

How the data were processed

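H3K27ac HiChIP lists of 4 groups were read as deposited. Per the study's methods, reads were mapped to mm39 (the assembly GRCm39) with BWA 0.7.17, pairtools removed duplicates, and FitHiChIP called interactions; how replicates were pooled is not stated. The bins of 5 kb and the q-value limit of 0.01 are those of the deposited lists. Deposited by the authors for each pair is a contact count, a whole number of ligation products. The contact probability is a deposited fraction, the q-value is an adjusted p-value of the authors' caller, and the coverage bias and expected contacts are deposited as a score. Each list has 26 columns without names, of which 10 value columns were used, 10 were not, and 6 give positions. The caller corrects for coverage and lists significant pairs only, so contacts of unlisted pairs are unknown.

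Modelled contacts were taken from expected contacts over contact probability, and the mean coverage of peak bins from coverage over coverage bias. Contacts have exact Poisson intervals, and ratios and shares exact binomial (Clopper-Pearson) intervals at 95%. A difference was called past 1.5-fold after scaling. Gene starts were those of canonical transcripts of 21757 protein-coding genes (GENCODE M39). Named were the members, genes in their bins or partner bins or within 100 kb of Tnf, listed pathway genes with a loop difference of 5 or more in the same direction in both comparisons, and the 5 genes most alike in coverage. As 0 pathway genes met this rule, those named were chosen after their values were seen. The members and lists were chosen with earlier results of these data known. Promoter sequences came from RefSeq and bin sequences from GRCm39; motifs were searched on both strands. Alternatives were lists of equal size (78591 loops), q-values of 0.001 and 1e-05, at least 10 contacts, wider bins and windows, merged bin pairs and other scalings. The functions were tested on simulated data. Python 3.11.15 was used with numpy 2.4.6, pandas 2.3.3, scipy 1.17.1 and matplotlib 3.10.9.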

Additional observations from a re-analysis of the deposited data

Results flagged for a closer look

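With 1 list per group, the following are differences between single values and were not tested. The LPS lists lay above the UT lists in p30 and below them in p42, and the p42 lists lay above the p30 lists in UT and below them in LPS. For the number of loops, the log2 changes with LPS in p30 and p42 differed by 0.43 at the bin of Tnf and Lta (0.11 and -0.32), by 0.95 at the bin of Ltb (0.19 and -0.76) and by 0.65 within 100 kb of Tnf (0.3 and -0.35). These opposite directions did not hold under all alternatives. At Tnf and Lta the changes in p30 and p42 were -0.12 and -0.12 at a q-value under 0.001, and 0.13 and 0.13 under 1e-05. At Ltb they were 0 and -0.3 in lists of equal size and -0.12 and -0.38 at a q-value under 1e-05. In the window they were 0.2 and 0.06 in lists of equal size, and -0.18 and 0.38 with adjacent bin pairs merged. For contacts per modelled contact at loops in all 4 lists, they differed by 0.8 at Tnf and Lta (0.64 and -0.15), by 0.72 at Ltb (0.29 and -0.43) and by 0.75 within 100 kb of Tnf (0.45 and -0.3). Per mean coverage of peak bins, the ratio of contacts with LPS in p42 was 1.14 at Tnf and Lta and 1.03 in the window, above 1 as in p30. For coverage over the mean of peak bins they differed by 0.36 at Tnf and Lta (0.31 and -0.05) and by 0.33 at Ltb (0.08 and -0.25), although at Ltb the p42 lists lay below the p30 lists under both treatments. The coverage of peak bins over other bins given in the report was also highest in p30 LPS and p42 UT, and its part was not tested.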

How the results depend on the processing

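No paired analysis was possible because each deposited list pools both replicates of a group, and for the same reason no replicate could be left out. Values are given in the order p42 UT over p30 UT, p42 LPS over p30 LPS, p30 LPS over p30 UT and p42 LPS over p42 UT; the cause of the shifts was not tested. The ratios of contacts depended on the scaling. Divided by the mean coverage of peak bins they were 1.11, 0.956, 1.32 and 1.14 at Tnf and Lta, 1.11, 1.01, 1.05 and 0.938 at Ltb, and 1.15, 1.01, 1.17 and 1.03 within 100 kb of Tnf. Divided by the contacts in the loops of all 4 lists they were 0.991, 0.876, 1.24 and 1.11 at Tnf and Lta, 0.996, 0.925, 0.992 and 0.908 at Ltb, and 1.03, 0.927, 1.11 and 1 in the window. Divided by the median ratio of all loops of both lists, a scaling chosen after seeing the data, they were 1.11, 1.31 and 1 in UT, p30 and p42 at Tnf and Lta, 1.11, 0.874, 1.04 and 0.821 at Ltb, and 1.15, 0.876, 1.16 and 0.904 in the window. Over expected contacts, the values outside the counting interval were 0.848 between isoforms in LPS and 1.3 with LPS in p30 at Tnf and Lta, 0.897 between isoforms in LPS at Ltb, and 1.27, 0.889, 1.21 and 0.85 in the window. With the loops in all 4 lists, all stayed within it. Coverage divided by modelled contacts gave 1.25, 0.671, 1.43 and 0.771 at Tnf and Lta, 1.11, 0.616, 1.22 and 0.672 at Ltb, and 1.06, 0.546, 1.91 and 0.977 at the bin 15 kb away. In all, 8 of 60 alternative contact ratios and 3 of 24 coverage ratios lay on the other side of 1 from the main value. The log2 ratio of Ltb loops between p42 UT and p30 UT was 0 at a q-value under 1e-05, against 0.65. With adjacent bin pairs merged, the window held 17, 15, 10 and 13 clusters in the order of lists of the report, and the log2 ratio was -0.77 between isoforms in UT and 0.38 with LPS in p42. Signs of several other differences in loop number also changed. At Tnf and Lta, the log2 ratio between isoforms in UT went from 0.21 to 0 in lists of equal size and at q-values under 0.001 and under 1e-05, and that in LPS from -0.22 to 0 at both q-values. With LPS it went in p30 from 0.11 to -0.12 at a q-value under 0.001, and in p42 from -0.32 to 0.13 at a q-value under 1e-05. At Ltb, the ratio with LPS in p30 went from 0.19 to 0 in lists of equal size and to -0.12 at a q-value under 1e-05. In the window, the ratio with LPS went in p42 from -0.35 to 0.06 in lists of equal size, and in p30 from 0.3 to -0.18 with pairs merged. Loops held as few as 10 contacts here, so that single loops of this size differ detectably only by large ratios.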
